A study of Mus musculus with 96 samples.

Results

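Mouse embryos collected 20 h and 22 h after fertilization (n = 15) were compared with embryos collected at 16 h and 18 h (n = 17). Each library came from 1 embryo of strain C57BL/6J, and the 32 libraries of this comparison were taken, by the hour in their labels, from the 96 of the series. They are 8 embryos of 16 h, 9 of 18 h, 5 of 20 h and 10 of 22 h. All carried the same genotype and were left untreated: females were superovulated with PMSG and, 46 h later, hCG, and were mated to males of the same strain. The series followed embryos every 2 h across the transition from 1 cell to 2 cells. Cumulus cells were taken off with hyaluronidase and embryos were kept in KSOM. Some titles end in the letter b, whose meaning is not stated. It marks 5 of 8 embryos of 16 h, 5 of 9 of 18 h, all 5 of 20 h and 7 of 10 of 22 h, or 10 of 17 in the earlier and 12 of 15 in the later period.

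The period spans the first cleavage. Before it, the embryo lives mostly on RNA stored by the egg, which is translated, re-tailed and destroyed on a schedule, while its own genome is transcribed weakly. After it, genome activation in the 2-cell embryo brings a large wave of new transcripts. A gradual loss or gain of message can then be too small for a single 2-hour step and still add up over a longer interval. SMART-Seq v4, the kit used here, primes cDNA on poly(A) tails, so a change in level and a change in tail length cannot be told apart. Levels are relative to the RNA of each library, so a gene's share and its amount per embryo cannot be told apart either.

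Gene counts per library ranged from 869212 to 6439316. The 10 oocyte and early embryo markers had a median of at least 1 CPM (counts per 1000000 gene counts) in both periods, and their sum lay between 9696 and 17006 CPM. Of 17 cumulus and granulosa markers 2 reached that level, with sums from 37.0 to 285 CPM, and Amh was at 0 in every library. Of 10 sperm and testis markers 2 did so in each period, and Tnp1, Tnp2, Smcp, Acr and Spem1 were at 0 in every library. The sum of 15 blood and oviduct markers did not stay level over the hours: it exceeded 500 CPM in 2 of 8 embryos of 16 h and 5 of 10 of 22 h, all of them suffix b, and was at most 41.9 CPM at 18 h and 35.4 CPM at 20 h. The highest sum, 5546 CPM in 22 h replicate 1b, was mostly globin RNA (5031 CPM). A pair of libraries stood apart by their correlation with their own period: 22 h replicate 1 (median Spearman rho 0.755) and 18 h replicate 3 (0.807), against a median of 0.876 over the 32. No 2 libraries of 1 hour agreed within sampling noise. Library measures were compared by permutation tests without the suffix as a covariate (100000 resamples, two-sided). The periods did not differ past the test in total count, genes detected, mitochondrial share, share of the 50 most abundant genes or repeat share. The adjusted permutation p ran from 0.296 to 0.737 over these 5 measures. Repeat counts per 100 gene counts had medians of 7.64 and then 9.41 with suffix b, and of 14.2 and then 17.5 without. Repeat share within each suffix group was not tested.

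Of 10461 genes tested with suffix b as a covariate, 204 were higher at 20-22 h (1.95%) and 431 were lower (4.12%). The test was edgeR's quasi-likelihood F test with Benjamini-Hochberg adjustment and a threshold of 0.05. All adjusted p-values below come from it, SE is the standard error of a log2 change, and CPM uses TMM-scaled library sizes. The balance of rises and falls moved with single libraries and settings. Leaving out 1 library gave from 75 (without 16 h replicate 7b) to 527 rises (without 22 h replicate 1, with 537 falls), DESeq2 gave 475 higher and 612 lower, and without 18 h replicate 3b the split was 420 to 517. With library size alone in place of TMM the split was 82 higher to 582 lower, and the higher share of calls moved from 32.1% to 12.3%. That scaling moved the median change of all genes from 0.06 to -0.00. Changes were modest: the median called rise was 0.84 and the median called fall was -0.75, and 64 rises and 76 falls reached 2-fold. No called gene separated the 15 later from the 17 earlier embryos without overlap. Of the genes called higher 151 were protein-coding and 28 pseudogenes, and of those called lower 374 and 24. Among all 10461 genes tested, 8599 were protein-coding and 851 pseudogenes. The protein-coding share was 74.02% of the higher calls and 86.8% of the lower, against 82.2% of all genes tested. Differences in these shares were not tested.

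**Figure D1:**
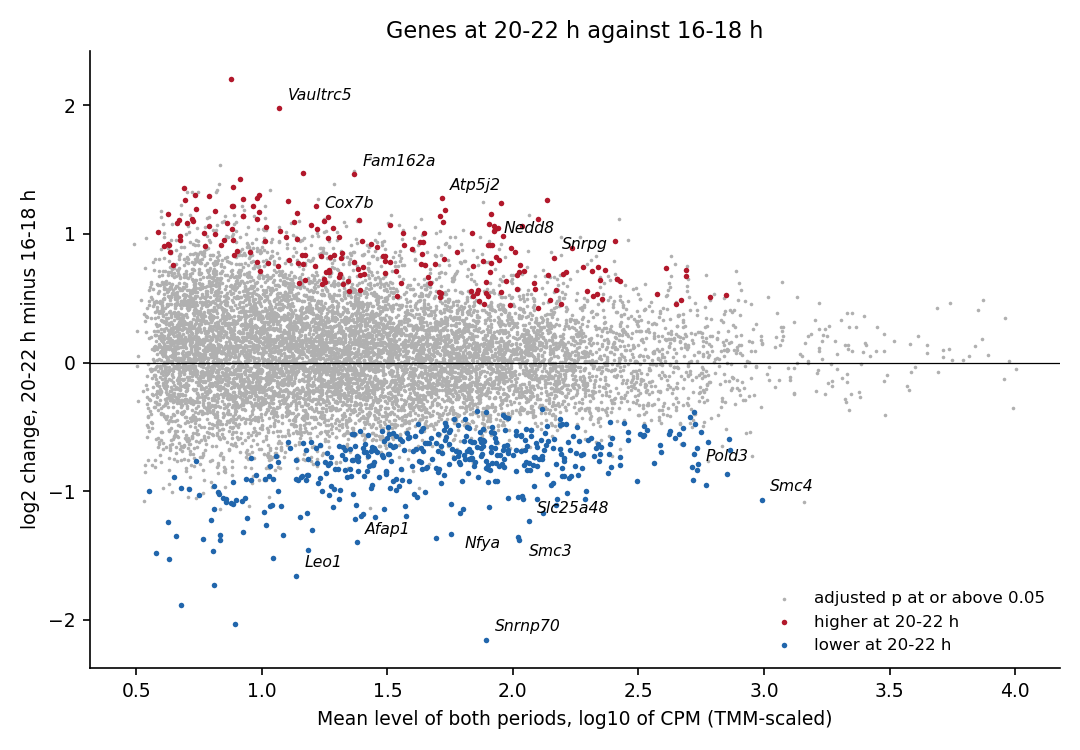
Each point is 1 of 10461 genes, with the mean level of the periods on the x axis (log10 CPM, TMM-scaled) and the log2 change from 16-18 h to 20-22 h on the y axis. The 204 genes higher at 20-22 h (red) and the 431 lower (blue) lie mostly within 2-fold, and Snrnp70 (-2.15) sits apart among the falls.

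Single 2-hour steps gave few calls in a fit of the same 32 libraries by hour. The step from 16 h to 18 h called 7 genes (0.0669%), that from 18 h to 20 h called 1 (0.00956%) and that from 20 h to 22 h called 4 (0.0382%). At an unadjusted p under 0.05 the respective counts were 926, 1057 and 618. Each step compares the embryos of 2 hours only, with 5 at 20 h, all of them suffix b. Over the respective steps the 204 genes called higher had median changes of 0.06, 0.83 and -0.06. The 431 called lower had -0.31, -0.56 and -0.06. Both sets were chosen by the pooled test in the same libraries. The names of the genes called in single steps were read after the values were seen. Snrnp70 alone passed from 18 h to 20 h. Gstm1, Wfdc18, Crip1, Nfya, Fgd6, Fbxo34 and Zfp830 fell from 16 h to 18 h, and Gstm1, Wfdc18, Ovgp1 and Gm42890 rose from 20 h to 22 h. Ovgp1, an oviduct glycoprotein, is on the marker list above, and Gstm1 moved by -4.02 (SE 0.59) and then by 5.14 (SE 0.62) over the same steps across which that list's sum dropped and returned. Its part in those calls was not tested.

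Fewer genes were called when either outer hour was left out. Without the 16 h embryos 26 genes were called and without the 22 h embryos 46, whereas 22 h against 16 h alone called 528 and 20 h against 18 h alone called 1, again Snrnp70. Without the 7 libraries above 500 CPM of blood and oviduct markers, 42 genes were higher and 176 lower, and 197 of these 218 were among the 635, with fewer embryos in the fit. Removing the pair of libraries that stood apart raised the count to 1150, with 614 of the 635 kept.

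The largest fall was that of Snrnp70, which encodes the U1-70K protein of the U1 snRNP, the particle that recognises 5' splice sites. It lies at chr7:45376453-45395742 on the minus strand (mm10). Its level ranged from 31.8 to 218 CPM (median 135.9) at 16-18 h and from 17.05 to 61.4 CPM (median 25.2) at 20-22 h. All 15 later embryos were under the earlier median and 11 were under the lowest earlier embryo. The change was -2.15 (SE 0.21, adjusted p = 2.04e-08), and the medians by hour were 127.9, 137.5, 25.2 and 25.7 CPM, so the drop fell between 18 h and 20 h (-2.47, SE 0.37, adjusted p = 0.000757). At 14 h, scaled in a separate fit, 5 embryos had 32.4 ± 2.02 CPM (SD), and at 24 h 6 embryos had 10.0 ± 8.38 CPM. Over these separately scaled fits the level at 16-18 h stood above those on both sides. The height at 16-18 h differed by suffix: the median was 159 CPM with b and 77.2 CPM without, and the fall was -2.69 among b libraries and -0.99 (adjusted p = 0.268) among the others, a difference of -1.74 past the test (interaction adjusted p = 0.00388).

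The RefSeq promoter of Snrnp70 (GRCm38.p6, chr7:45395693-45395992, minus strand, 250 bases before to 50 after the start) is shown because this gene had the largest called fall. Capitals mark GCATGCGC or its reverse complement GCGCATGC, the core bound by NRF1, a factor known from promoters of housekeeping and respiratory genes. There are 4 places, 2 of which hold both strands' letters overlapping, whereas 2.71% of the 32851 promoters of the table hold any. The match is a description of letters in this window.
Snrnp70: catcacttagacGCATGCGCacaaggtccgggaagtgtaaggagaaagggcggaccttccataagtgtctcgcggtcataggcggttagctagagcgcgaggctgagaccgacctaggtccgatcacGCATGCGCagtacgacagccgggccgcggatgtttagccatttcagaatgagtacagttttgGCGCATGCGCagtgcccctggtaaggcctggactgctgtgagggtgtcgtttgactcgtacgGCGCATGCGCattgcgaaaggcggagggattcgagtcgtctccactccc

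Other genes among the 12 largest falls that the rule names differed in function. Nfya encodes the A subunit of NF-Y, the factor that binds CCAAT boxes and is linked to early genome activation. Nfya ranged from 72.1 to 385 CPM (median 120) at 16-18 h and from 31.7 to 93.1 CPM (median 55.4) at 20-22 h. Its medians by hour were 203, 94.98, 52.9 and 59.7 CPM, and the step from 16 h to 18 h passed the test. The pooled change was -1.37 (SE 0.20, adjusted p = 3.61e-05), all 15 later embryos lay under the earlier median, and the change kept its sign without suffix b (-1.0).

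Slc25a48, a mitochondrial carrier, showed the same order of hours as Nfya, with medians of 219, 107.7, 65.2 and 69.6 CPM. It ranged from 97.8 to 278 CPM at 16-18 h and from 47.6 to 112.4 CPM at 20-22 h, where 13 of 15 embryos were under the lowest earlier one (-1.23, SE 0.16, adjusted p = 6.68e-06). Afap1, an actin filament-associated protein, ranged from 19.03 to 60.6 CPM and then from 7.15 to 21.6 CPM, with 12 of 15 under the lowest earlier embryo (-1.39, SE 0.17, adjusted p = 3.91e-06). Leo1, a subunit of the PAF1 elongation complex, changed by -1.65 (SE 0.28, adjusted p = 0.000237) from a median of 18.1 to 7.15 CPM. All 15 later embryos of both genes lay below the earlier median.

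Macf1, a microtubule-actin crosslinker with a transcript of 23495 bases, went from a median of 36.6 to 16.9 CPM (-1.20, SE 0.19, adjusted p = 0.000103). Taf15, an RNA-binding protein of the FET family, went from 18.5 to 6.32 CPM (-1.34, SE 0.27, adjusted p = 0.00174). In both genes 15 of 15 later embryos were under the earlier median. Also among the 12 largest falls were Smc3, Heatr1, Nans and Gcfc2, between -1.20 and -1.36, and Heatr1 is a factor of early ribosome assembly.

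**Figure D2:**
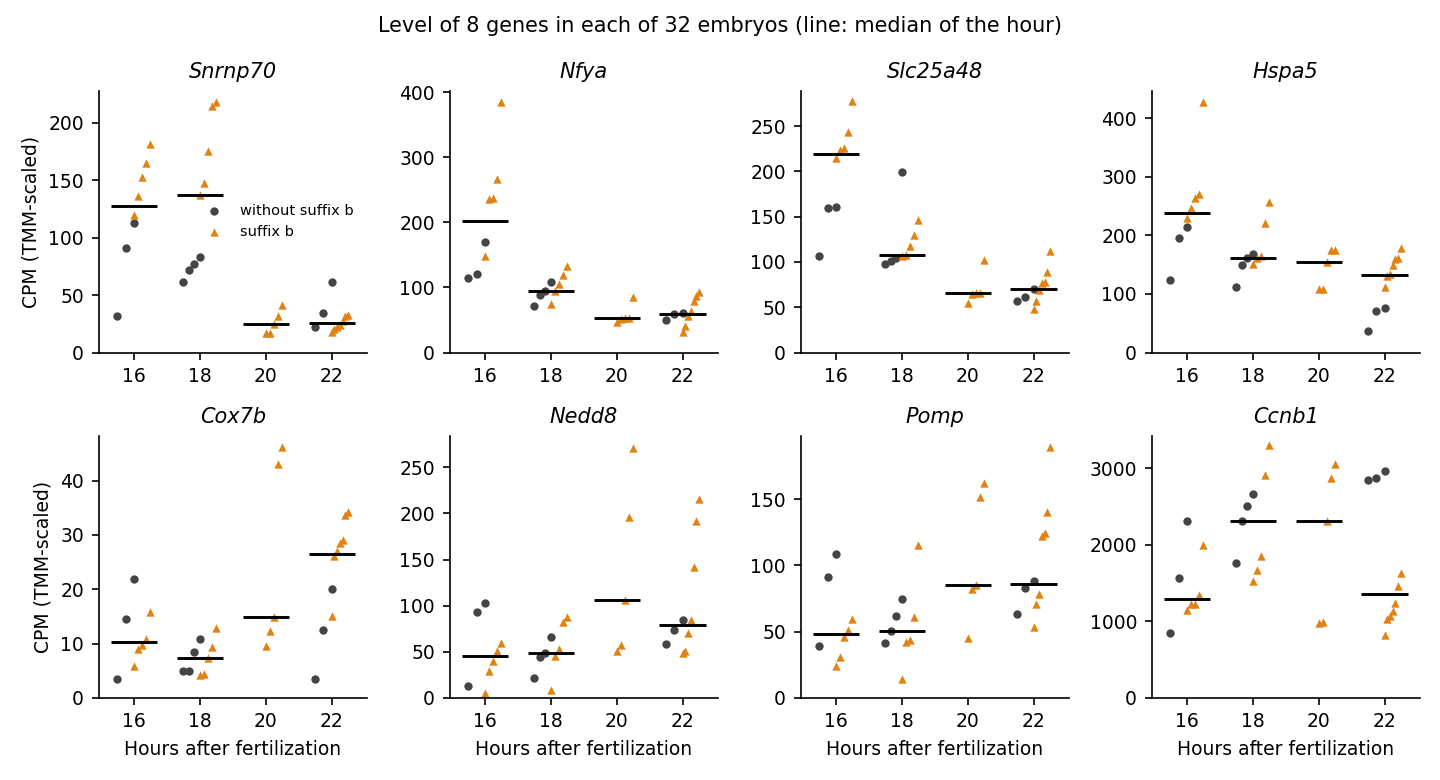
Level of 8 genes (y axis, CPM, TMM-scaled, from 0) in each of 32 embryos by hour after fertilization (x axis), with circles for titles without b, triangles for titles with b and a line at each hour's median. Snrnp70 dropped between 18 h and 20 h, the medians of Nfya and Slc25a48 were already lower at 18 h than at 16 h, Cox7b, Nedd8 and Pomp were higher at 20-22 h with wide overlap, and Ccnb1 did not pass the test.

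The 12 largest rises were led by short transcripts. Vaultrc5, a small RNA of the vault particle transcribed by RNA polymerase III, ranged from 0 to 16.9 CPM (median 2.30) at 16-18 h and from 2.09 to 58.3 CPM (median 14.1) at 20-22 h (1.97, SE 0.48, adjusted p = 0.0104). Whether its reads came from a tailed or an overlapping transcript is not resolved, since use of strand is not stated. Fam162a, a mitochondrial protein linked to hypoxia, went from a median of 10.1 to 23.6 CPM (1.46, SE 0.39, adjusted p = 0.0182), with 14 of 15 later embryos above the earlier median.

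Nedd8, the ubiquitin-like protein that activates cullin ligases, ranged from 4.75 to 102.9 CPM (median 48.7) and then from 49.1 to 271 CPM (median 84.8). All 15 later embryos were above the earlier median (1.15, SE 0.33, adjusted p = 0.0312). Mettl5, an 18S rRNA methyltransferase, rose by 1.16 (SE 0.24, adjusted p = 0.0023), with 2.02 without suffix b and 0.72 within it, a difference that did not pass the test (interaction adjusted p = 0.109). Pde6d, a chaperone of prenylated proteins, and Drap1, a repressor of RNA polymerase II initiation, rose by 1.24 (SE 0.34, adjusted p = 0.0248) and 1.22 (SE 0.35, adjusted p = 0.0325). Rpl36al, a ribosomal protein gene, and the pseudogene Rpl36a-ps3 rose by 1.28 and 1.27, and reads of such near-identical copies cannot be assigned with certainty. The other rises of the 12 were Atp5j2, Ndufs5, Cox7b and AC132253.4.

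Nuclear genes of the respiratory chain gave calls in 1 direction. Of 66 tested, 8 rose (12.1%, against 1.95% of all genes) and none fell. Their median change was 0.60, against 0.06 for all genes tested and 0.55 with library size alone, where 4 rose and 1 fell. Without the 7 libraries rich in blood and oviduct markers the median was 0.62 but no gene was called (25 higher at an unadjusted p under 0.05), and without the pair that stood apart 18 rose. The 8 were Atp5j2 and the complex IV subunits Cox7b, Cox5b, Cox5a and Cox8a, and the complex I subunits Ndufs5, Ndufb2 and Ndufa13. Cox7b ranged from 3.44 to 21.9 CPM (median 9.04) at 16-18 h and from 3.50 to 46.1 CPM (median 26.1) at 20-22 h (1.22, SE 0.29, adjusted p = 0.00948). In all, 14 of 15 later embryos were above the earlier median and 8 above the highest earlier embryo. Cox8a went from a median of 331 to 724 CPM (0.67, SE 0.19, adjusted p = 0.0252), and Cox5b from 51.2 to 113.6 CPM (0.92, SE 0.24, adjusted p = 0.0199).

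The rise was seen in the suffix b libraries. The list's median was 0.89 among them and -0.31 among the others, and in the latter the 8 called genes lay between -0.55 (Ndufb2) and 0.21 (Cox7b). Ndufb2 was the 1 gene called higher whose change differed by suffix past the test (interaction 1.87, SE 0.48, adjusted p = 0.022). By step, the list's median was -0.01 from 16 h to 18 h, 0.70 from 18 h to 20 h and -0.13 from 20 h to 22 h. Transcripts of the mitochondrial genome, the other part of the chain, had no call among 14 and a median of 0.17.

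The promoters of 3 of these subunits are shown as members that rose together, with CCAAT or its reverse complement ATTGG, the box bound by NF-Y, and GCATGCGC in capitals. CCAAT is in 37.4% of the promoters of the table. Cox7b (chrX:106015450-106015749, plus strand) holds it in 2 places, Atp5j2 (chr5:145191492-145191791, minus strand) in 1 and Ndufs5 (chr4:123718137-123718436, minus strand) in none, and GCATGCGC is in none of them. Neither set of letters is in all 3.
Cox7b: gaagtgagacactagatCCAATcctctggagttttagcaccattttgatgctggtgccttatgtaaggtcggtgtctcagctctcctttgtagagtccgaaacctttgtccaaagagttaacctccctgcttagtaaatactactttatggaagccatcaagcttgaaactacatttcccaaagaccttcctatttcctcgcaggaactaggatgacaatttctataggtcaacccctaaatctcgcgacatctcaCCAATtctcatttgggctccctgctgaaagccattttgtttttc
Atp5j2: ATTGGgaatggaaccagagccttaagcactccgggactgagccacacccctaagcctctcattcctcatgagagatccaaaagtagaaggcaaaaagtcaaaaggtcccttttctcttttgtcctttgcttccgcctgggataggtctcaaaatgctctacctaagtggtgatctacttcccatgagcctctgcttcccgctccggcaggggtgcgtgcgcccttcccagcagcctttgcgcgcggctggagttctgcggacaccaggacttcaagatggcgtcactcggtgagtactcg
Ndufs5: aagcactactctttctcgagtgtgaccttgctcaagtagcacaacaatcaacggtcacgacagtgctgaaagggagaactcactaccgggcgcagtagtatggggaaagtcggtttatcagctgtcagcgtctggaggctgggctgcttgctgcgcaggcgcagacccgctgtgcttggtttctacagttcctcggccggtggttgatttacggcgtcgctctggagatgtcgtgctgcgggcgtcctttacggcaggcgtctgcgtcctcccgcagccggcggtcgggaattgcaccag

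Cytosolic ribosomal protein genes had a median near that of the respiratory chain, with few calls. Of 46 tested, Rps6 and Rps25, both of the small subunit, rose (1.16 and 0.61; 4.35%, against 1.95% of all genes) and none fell, and the list's median was 0.51. It was 0.78 among suffix b libraries and -0.36 among the others. Without the 7 libraries rich in blood and oviduct markers none of 44 was called (7 higher at an unadjusted p under 0.05), and without the pair that stood apart 6 rose. Many ribosomal proteins have near-identical pseudogenes, so single members are uncertain. Rps6 was also low, from 0 to 6.51 CPM at 16-18 h and from 1.64 to 9.87 CPM at 20-22 h.

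Genes that build ribosomes gave calls in the other direction. Of 48 tested, 9 fell (18.8%, against 4.12% of all genes) and none rose, with a median of -0.29, or -0.34 and 13 falls with library size alone. Without the libraries rich in blood and oviduct markers 3 fell, and without the pair that stood apart 11 fell and 2 rose. The 9 were Noc2l, Polr1a, Nop58, Nop56, Utp20, Ncl, Ltv1, Utp3 and Wdr43. Polr1a encodes the largest subunit of RNA polymerase I, Nop56 and Nop58 are core proteins of box C/D snoRNPs, and Ncl (nucleolin) is the major nucleolar protein. Nop58 ranged from 148 to 425 CPM (median 214) at 16-18 h and from 41.1 to 219 CPM (median 135.4) at 20-22 h (-0.88, SE 0.17, adjusted p = 0.00106). Ncl went from a median of 725 to 621 CPM (-0.68, SE 0.17, adjusted p = 0.0124). Noc2l, a low gene, went from 6.11 to 1.97 CPM (-1.53, SE 0.34, adjusted p = 0.00439), with all 15 later embryos under the earlier median. The list's median was below 0 both with suffix b (-0.24) and without (-0.38).

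**Figure D3:**
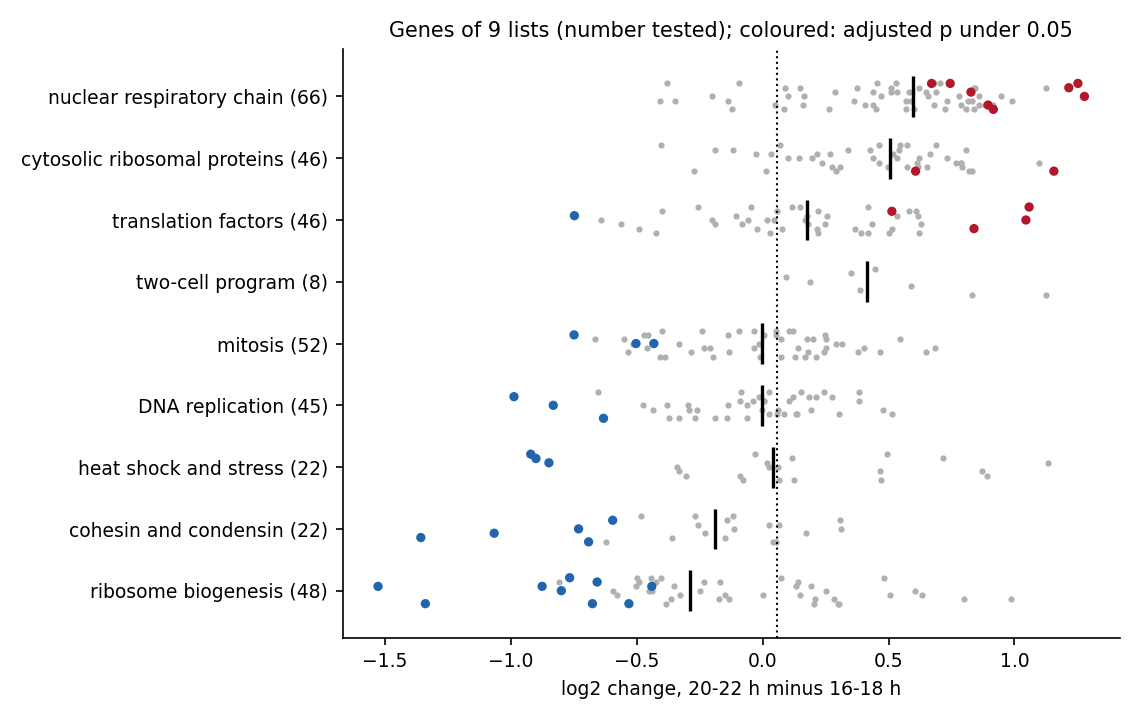
Log2 change from 16-18 h to 20-22 h (x axis) of each tested gene of 9 lists (rows, number tested in brackets), with red and blue for genes past the test, grey for the others, a bar at each list's median and a dotted line at the median of all genes (0.06). Respiratory and ribosomal protein genes lie mostly to the right, cohesin, condensin and ribosome biogenesis genes mostly to the left.

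Cohesin and condensin hold sister chromatids together and compact them for division. The list of their genes also holds Smc5 and Smc6, which belong to another SMC complex. Of 22 genes of this list tested, 5 fell (22.7%, against 4.12% of all genes) and none rose, with a list median of -0.19. The 5 were Smc3, Smc4, Ncaph and Ncapg of cohesin and condensin, and Smc5. Without the libraries rich in blood and oviduct markers 2 fell. Smc3, the cohesin core subunit, ranged from 22.5 to 408 CPM (median 113.3) at 16-18 h and from 13.3 to 141 CPM (median 63.99) at 20-22 h (-1.36, SE 0.29, adjusted p = 0.00282). Smc4, of condensin, ranged from 392 to 3220 CPM (median 970) and then from 194 to 1596 CPM (median 567; -1.07, SE 0.26, adjusted p = 0.00983). The ranges overlapped widely, and 12 and 11 of 15 later embryos were under the earlier medians. Both had larger falls without suffix b (-1.86 and -2.06) than within it (-1.21 and -0.77), differences that did not pass the interaction test (adjusted p = 0.619 and 0.176).

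DNA replication and mitosis genes gave few calls, with shares near that of all genes. Of 45 replication genes 3 fell (6.67%, against 4.12% of all genes): Pold3, a subunit of polymerase delta, Prim1, the catalytic primase subunit, and Mcm10, an origin factor. Pold3 ranged from 385 to 979 CPM (median 651) and then from 306 to 638 CPM (median 361), with 15 of 15 later embryos under the earlier median (-0.83, SE 0.13, adjusted p = 0.000103). Of 52 mitosis genes 3 fell (5.77%): Top2a, which untangles chromosomes (-0.75, SE 0.16, adjusted p = 0.00235), the checkpoint kinase Bub1 (-0.50) and Anapc4 of the anaphase-promoting complex (-0.43). Without the libraries rich in blood and oviduct markers 2 replication genes and 1 mitosis gene fell. Cyclins and their inhibitors had no call among 18. Of 24 genes of meiotic exit 2 fell (8.33%, and 1 gene without those libraries): Cdc25a, a CDK phosphatase (-0.83, SE 0.17, adjusted p = 0.0017), and Camk2g, the calcium-dependent kinase that releases the egg from arrest. Camk2g changed by -1.40 with suffix b and by 0.00 without (interaction -1.44, SE 0.33, adjusted p = 0.0133).

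Histone variants and their chaperones gave calls in both directions, whereas the calls among heat shock genes and histone modifiers were all falls. Of 22 heat shock genes the HSP70 family members Hspa8, Hspa5 and Hspa4 fell (13.6%, against 4.12% of all genes), and 1 of 20 did so without the libraries rich in blood and oviduct markers. Hspa5, the chaperone of the endoplasmic reticulum, ranged from 112.5 to 428 CPM (median 195) and then from 36.3 to 179 CPM (median 134.8), with all 15 later embryos under the earlier median (-0.90, SE 0.15, adjusted p = 0.000257). Of 25 histone variant and chaperone genes, Chaf1b and Mis18a rose (1.11, SE 0.31, and 1.07, SE 0.28) and Chaf1a fell (-0.80, SE 0.19, adjusted p = 0.00657), and without those libraries 1 rose and none fell. With all libraries the shares were 8% higher and 4% lower, against 1.95% and 4.12% of all genes. Chaf1a and Chaf1b encode subunits of the same complex, CAF-1, which loads histones behind the replication fork. The histone modifiers Kdm4a, Kat6a and Ezh1 fell among 39 (7.69%), and none rose. Hist1h4c, a core histone H4 gene, rose by 0.92 (SE 0.28, adjusted p = 0.0424), 1 of 8 replication-dependent histone genes tested (12.5%, against 1.95% of all genes). Its level was low, from 0.67 to 7.34 CPM at 16-18 h and from 1.04 to 10.2 CPM at 20-22 h. None of the 8 was called without those libraries (1 at an unadjusted p under 0.05).

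Calls were also mixed in splicing, translation and the proteasome. Of 51 splicing genes Lsm6 and Snrpg rose (3.92%, against 1.95% of all genes) and Snrnp70, Prpf3 and Hnrnpu fell (5.88%, against 4.12%). Without the libraries rich in blood and oviduct markers 1 rose and 2 fell. Snrpg, a small Sm protein, ranged from 57.8 to 197 CPM (median 77.7) and then from 54.04 to 341 CPM (median 214), with 8 later embryos above the highest earlier one (0.81, SE 0.22, adjusted p = 0.0201). Of 46 translation factors the initiation factors Eif1ax, Eif2s3x and Eif4e and the synthetase-complex protein Eef1e1 rose (8.70%), and Eif3c fell (2.17%), whereas 1 rose and none fell without those libraries. Eif1ax went from a median of 56.3 to 120.8 CPM (1.06, SE 0.26, adjusted p = 0.0111). Eif3c changed by -0.31 with suffix b and -2.31 without (interaction 1.96, SE 0.38, adjusted p = 0.00333). Of 39 proteasome genes the assembly factor Pomp rose (0.92, SE 0.24, adjusted p = 0.0177), with 14 of 15 later embryos above the earlier median, and the lid subunits Psmd12 and Psmd7 fell (-0.61 and -0.50). These shares, 2.56% higher and 5.13% lower, were near those of all genes, and without those libraries no proteasome gene was called (11 at an unadjusted p under 0.05).

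Single calls fell elsewhere. Among 42 genes of mRNA decay and poly(A) control the poly(A) polymerase Papolg fell (-0.77, SE 0.20, adjusted p = 0.0144). Among 31 genes of RNA polymerase II and its general factors Gtf2h1 and Polr2b fell (-0.67 and -0.62). Among 19 activation regulators Nfya and Chaf1a fell, and among 8 imprinted genes Mest fell (-0.75, SE 0.18, adjusted p = 0.00911). The shares lower were 2.38%, 6.45%, 10.5% and 12.5%, against 4.12% of all genes. Without the libraries rich in blood and oviduct markers 1 activation regulator fell and the other 3 lists had no call (7, 5 and 2 genes at an unadjusted p under 0.05).

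Genes of the 2-cell program gave no call. Of 33 of its genes 8 had enough counts to be tested and none passed. All 8 changes were positive (median 0.42), as were 5837 of the 10461 over all genes tested. Zscan4d, a 2-cell zinc finger gene, ranged from 0 to 8.01 CPM (median 3.21) at 16-18 h and from 1.08 to 22.5 CPM (median 8.40) at 20-22 h, where 8 of 15 embryos were above the highest earlier one (1.12, SE 0.42, adjusted p = 0.0912). At 24 h it averaged 156 ± 237 CPM (SD, n = 6). Zfp352 and Xist were too low to test, with counts in 9 and 2 of the 17 earlier and 8 and 6 of the 15 later embryos.

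Several other lists gave no call. None passed among 33 maternal-effect genes (median 0.00), 14 zona and secreted proteins (0.05) and 4 Obox genes (-0.01). Nor did any of 15 DNA methylation genes (-0.11), 18 glycolysis genes (0.10) and 7 pluripotency genes (0.35). With library size alone 2 maternal-effect genes, 1 of the zona and secreted proteins and 2 DNA methylation genes were lower. H1foo, the oocyte linker histone, had a median of 1373 and then 769 CPM (-1.08, SE 0.35, adjusted p = 0.0576). Gdf9, an oocyte growth factor, had 968 and then 653 CPM (-0.73, SE 0.23, adjusted p = 0.0523), and both were under the earlier median in 11 of 15 later embryos. Mos (-0.48), Zp3 (-0.18), Plk1 (-0.14), Btg4 (-0.12), Ccne1 (-0.06), Ccnb1 (-0.01), Slbp (0.08), Ccna2 (0.12), Cdc20 (0.29), Cnot6l (0.30) and Dppa3 (0.43) had adjusted p from 0.106 to 0.983.

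Repeat families were counted in the same table. Of 474 tested, 110 were higher at 20-22 h (23.2%) and 2 lower (0.422%), MER70A and L1M4c. With library size alone none was higher and the same 2 were lower, with 27.0% of families at an unadjusted p under 0.05 and a median change of 0.26 against 0.32. Leaving out single libraries moved the number called between 24 and 221. The largest called rises were in L1MEd (1.41, SE 0.34), L1MEj (1.04), L1Md_T (1.03), RLTR45 (0.94) and MLTR31C_MM (0.93).

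L1Md_T, a young LINE-1 family, ranged from 184 to 713 CPM (median 288) at 16-18 h and from 270.1 to 1625 CPM (median 572) at 20-22 h (SE 0.27, adjusted p = 0.0132). MERVL-int, the endogenous retrovirus that marks 2-cell embryos, went from a median of 15.9 to 29.0 CPM (0.86, SE 0.22, adjusted p = 0.0121), and its promoter repeat MT2_Mm from 67.9 to 88.02 CPM (0.43, SE 0.14, adjusted p = 0.0272). With library size alone these 3 had adjusted p = 0.0633, 0.0633 and 0.139. MER70A went from a median of 24.5 to 12.9 CPM (-0.97, SE 0.18, adjusted p = 0.00132).

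The libraries with and without suffix b did not agree for every gene. An interaction of suffix and period passed the test for 372 genes (3.56%), 219 with the more positive change in b and 153 with the more negative. Of the 204 genes called higher, 33 had a change of the other sign in the libraries without b, and of the 431 called lower, 34. Over all 10461 genes tested 3378 did so. The libraries without b were part of the fit behind the calls, so their signs are not independent of it. The interaction itself passed the test for 1 of the 204 and for 40 of the 431. Among suffix b libraries alone 496 genes were higher and 556 lower, and among the 10 others 3 and 46, where 3 embryos stood for 20-22 h and none was of 20 h. All 20 h embryos carry b, so that hour can be compared directly with the others only within suffix b. Whether its changes hold without b cannot be told.

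A separate set of embryos gave the same direction for most of these genes. At 24 h (n = 6) against 14 h (n = 5), 1624 of 11467 genes were higher (14.2%) and 1239 lower (10.8%). Of the 201 genes called higher at 20-22 h and tested there, 58.7% were called higher at 24 h and none lower, and 196 had a positive change. Of the 429 called lower, 62.9% were called lower and 409 had a negative change. Over all 10306 genes tested in both, 14.7% were called higher at 24 h and 11.4% lower, and 5286 changes were positive and 5020 negative. Gm46426, named after its value was seen, was the 1 gene called lower at 20-22 h (-1.33) and higher at 24 h (1.34). These embryos enter neither period, but 14 h holds no suffix b title and 24 h holds 2.

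**Figure D4:**
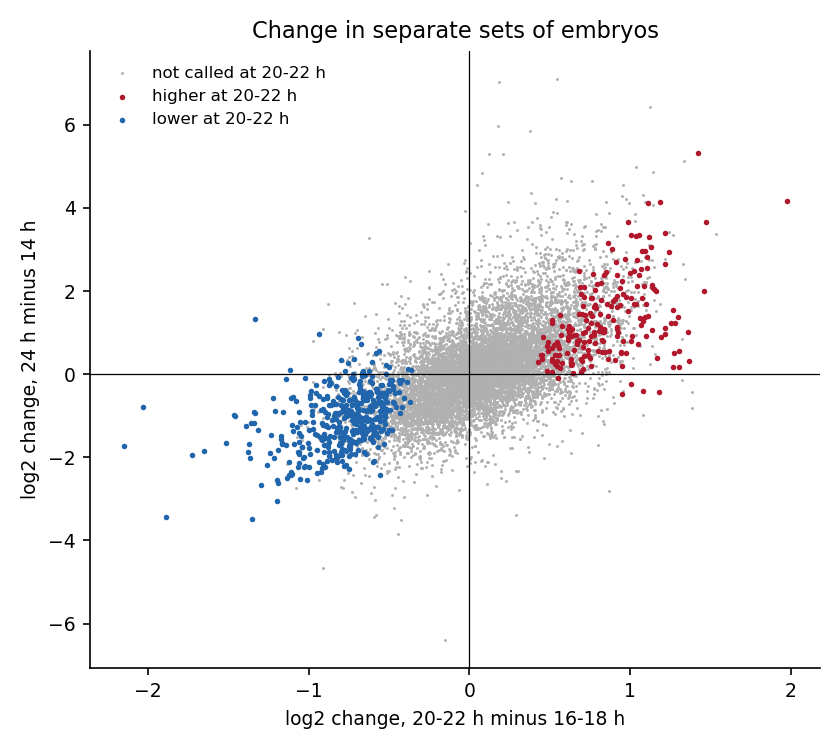
Log2 change from 16-18 h to 20-22 h (x axis) against that from 14 h to 24 h in other embryos (y axis) for the 10306 genes tested in both. Of the 201 genes called higher (red) 196 lie above 0 on the y axis, and of the 429 called lower (blue) 409 lie below it. Of all 10306, 5286 lie above 0 and 5020 below it.

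From 14 h to 24 h, a wider interval in a separate fit, Chaf1b (4.11, adjusted p = 0.00241), Eef1e1 (2.74, adjusted p = 0.00336) and Eif1ax (2.40, adjusted p = 0.000908) rose, and Smc3 (-3.48, adjusted p = 0.00735) and Hspa5 (-2.24, adjusted p = 0.00195) fell. Of the 8 respiratory genes that rose, Cox5b, Cox5a, Cox8a and Ndufb2 were also called there and Atp5j2, Cox7b, Ndufs5 and Ndufa13 were not (1.23, 1.11, 1.24 and 0.54).

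Called genes differed in transcript length. The median of the longest annotated transcript was 2281 bases for the 151 protein-coding genes called higher, 4331 for the 374 called lower and 3463 for all 8599 tested. Of 378 protein-coding genes with transcripts under 1000 bases, 24 were higher (6.35%) and 2 lower (0.529%), with a median change of 0.50. Of 592 with 8000 bases or more, 3 were higher (0.507%) and 50 lower (8.45%), with a median of -0.15. The shares of all genes tested were 1.95% higher and 4.12% lower. For the short genes the median was 0.74 among suffix b libraries and -0.16 among the others. The share of protein-coding counts in short transcripts had a median of 3.64% in the earlier and 5.67% in the later b libraries, and of 3.22% and 3.60% in those without b. Respiratory chain genes under 1000 bases had a median of 0.73 (29 genes) and longer ones 0.47 (37 genes), against 0.50 and 0.02 for all protein-coding genes of these lengths. From 14 h to 24 h the genes under 1000 bases had a median of 0.56. The part of transcript length in the rise of these lists was not tested further.

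**Figure D5:**
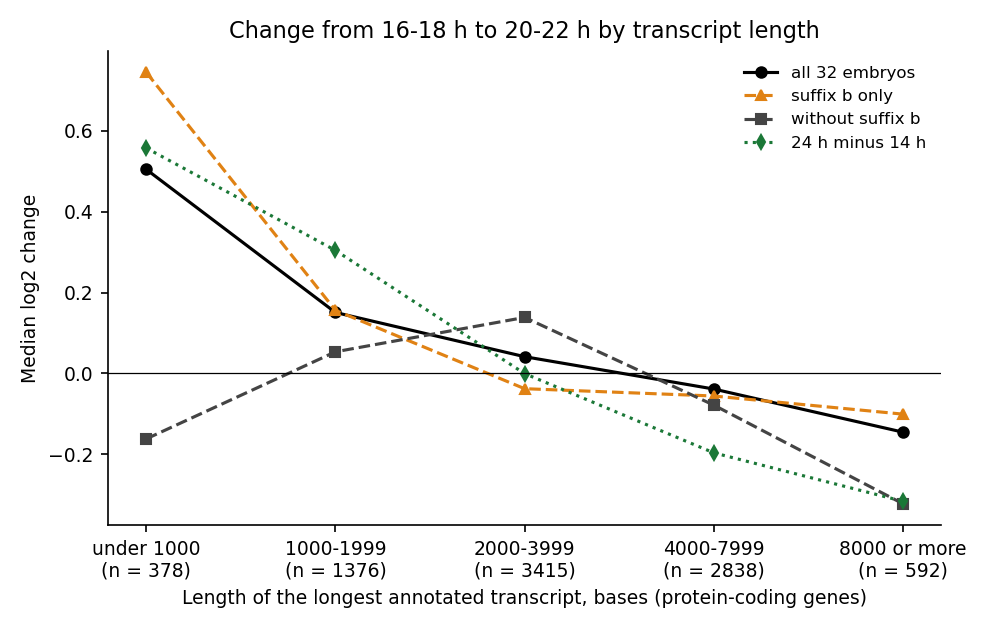
Median log2 change (y axis) of protein-coding genes in 5 classes of transcript length (x axis, number of genes in brackets) for all 32 embryos, for those with and without suffix b, and for 24 h against 14 h. The median fell from 0.50 for the shortest class to -0.15 for the longest over all embryos, and the shortest class was at -0.16 without suffix b.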

How the data were processed

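RNA of single mouse oocytes and embryos was sequenced after SMART-Seq v4 and Nextera XT, per the labels. The authors deposited expected counts for 55401 genes and 873 repeat families, not normalized, with 28.4% of non-zero gene values not whole. Per the submitters' processing notes, reads went through Trimmomatic 0.39, STAR and featureCounts on mm10. Annotation release, repeat annotation and use of strand are not given in the sources used here. Overlapping, antisense and near-identical genes are therefore uncertain.

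Counts were rounded, since the planned test assumed whole counts. Genes were named from GENCODE M21 (54349 identifiers matched with version). The 32 libraries were fitted in edgeR 4.0.16 (R 4.3.3): filterByExpr by period, TMM, robust quasi-likelihood F test, suffix b as covariate, two-sided, threshold 0.05. The script was tested on simulated data. Gene totals ranged from 869212 to 6439316 counts, which limits precision for low genes. The labels do not say which embryos came from separate females, so p-values measure the spread between these embryos. Alternatives included DESeq2 1.42.0. The comparison and the gene lists were chosen with earlier results of these data known.

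Genes were named by this rule: the 12 largest changes in each direction past the test, with a mean of at least 10 CPM in the higher period and the same sign without the covariate and within suffix b, unnamed models left out. The 2 called genes with the largest change in each direction of every list, a fixed set of maternal, cell cycle and 2-cell genes, 3 fixed repeats and the 5 called repeat families with the largest change in each direction were added. A gene this rule names is not reported here. Values of Nop58, Ncl, Cox8a, Cox5b, Cox5a, Ndufb2, Ndufa13 and Anapc4 fall outside the rule and were chosen after they were seen. The steps and the suffix interaction used the same 32 libraries, and 24 h against 14 h its own 11.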

Additional observations from a re-analysis of the deposited data

Results flagged for a closer look

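The change from 16-18 h to 20-22 h differed between libraries with and without suffix b for 372 genes in a test of the difference itself. Among the genes named, the difference (with b minus without b, log2) was -1.74 for Snrnp70, -1.44 for Camk2g, 1.96 for Eif3c and 1.87 for Ndufb2.

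Embryos were also compared with the others of their hour by the gap of the highest or lowest value to its neighbour, in 184 groups of 5 to 10 libraries, of which chance would place about 1 in 20 past the limit. Among marker sums, 16 h replicate 5b (265 CPM) and 18 h replicate 3 (285 CPM) stood high for cumulus and granulosa, 16 h replicate 1b (2084 CPM) for blood and oviduct, and 16 h replicate 1 (26.6 CPM) for sperm and testis. The correlation of 22 h replicate 1 with its own period (0.755) stood low, and this embryo stood high for Cdc20 (279 CPM) and Ccna2 (1004 CPM).

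Among genes that fell, 22 h replicate 3 stood high for Snrnp70 (61.4 CPM), 18 h replicate 3 for Slc25a48 (199 CPM), 22 h replicate 2b for Taf15 (13.9 CPM) and 16 h replicate 7b for Macf1 (91.4 CPM). In 20 h replicate 3b the levels of Slc25a48 (101.8 CPM), Nfya (84.8 CPM), Gdf9 (1830 CPM) and Btg4 (10185 CPM) stood high and that of Zp3 (75.3 CPM) stood apart. In 18 h replicate 7b those of Smc3 (332 CPM), Gcfc2 (33.8 CPM), H1foo (4698 CPM) and Btg4 (18772 CPM) stood apart. Mos stood high in 16 h replicate 7b (41.6 CPM). Gdf9, Btg4, Zp3, H1foo and Mos were not called between the periods.

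Among genes that rose, 16 h replicate 1 stood apart for Mettl5 (15.3 CPM) and Atp5j2 (104.2 CPM), 20 h replicate 7b for Mettl5 (21.2 CPM), 22 h replicate 3b for AC132253.4 (22.8 CPM) and 22 h replicate 2b for Ndufs5 (40.7 CPM).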

How the results depend on the processing

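The count of 635 called genes moved by over 1.5 times under several alternatives, and the causes were not tested. It was 1052 with suffix b libraries alone, 49 without them, 26 without the 16 h libraries, 46 without the 22 h libraries, and 1087 with DESeq2, which shared 634 of the 635. Fewer libraries entered the first 4 of these fits. Chosen after seeing the data, 1150 were called without the pair of libraries farthest from their period, 218 without those rich in blood and oviduct markers, and 1 at 20 h against 18 h alone. Leaving out single libraries gave 374 (without 16 h replicate 7b) to 1064 (without 22 h replicate 1), 24 to 221 repeat families, and 1793 to 3980 for 24 h against 14 h (1793 and 1883 without 14 h replicates 4 and 5). Repeat calls moved by over 1.5 times without 16 h replicates 1 (208) and 7b (71), 18 h replicate 7b (64), 20 h replicates 3b (169), 4b (37) and 7b (24), and 22 h replicates 1 (221), 4 (40) and 7b (177). Library size alone left 2 repeat families, 24 h without its suffix b libraries called 4884 genes, and the interaction 190 without the farthest pair. With suffix b alone the steps called 43, 4 and 55 genes. Snrpg (-0.080), Atp5j2 (-0.093), Ndufs5 (-0.16) and Camk2g (0.0039) changed sign without suffix b, and Chaf1a (0.22) at 20 h against 18 h alone. Of 55 named genes that were called, 39 stayed called without any 1 library, 38 under the replicate block and 19 without the blood and oviduct libraries.

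The replicate block, a term for the title number, called 308 genes, 293 of them among the 635. The numbers do not pair the embryos by any label. Correlations of same-numbered embryos of different hours ran from -0.59 to 0.64 (median 0.07, with 14 of 29 over 0.1). The 184 pairs of other numbers had a median of -0.00. Of 30 embryos, 5 correlated best with their own number.

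Depth (as low as 869212 counts) and 3 embryos of 20-22 h without suffix b limit what small changes can be seen.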
